A study of Mus musculus with 9 samples.

Results

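CD103 is the αE integrin chain encoded by Itgae, and TGF-β signalling through SMAD and RUNX factors is known to control it. Described here are 10 genes of that route, of 22180 genes with a value: the ligand Tgfb1, the receptors Tgfbr1 and Tgfbr2, the signal carriers Smad2 and Smad3, the inhibitors Smad7, Ski and Skil, and the DNA-binding factors Runx1 and Runx3. They were chosen by name, as the genes whose symbol the array annotation pairs alone with a feature, keeping the brightest feature of a gene. Each of the 10 had 1 such feature, and 10 of 10 lay above the median of their own array on all 9 arrays and entered the tests, among 12792 genes tested. RNA was measured in regulatory T cells (Tregs) from the lamina propria, the tissue layer under the gut epithelium, of the small and large intestine together. There were 3 arrays of wild-type (WT) mice, 3 of Y3 mice and 3 of Y3/CD103-/- mice, which carry Y3 and lack CD103. All mice were of the C57BL/6 strain and carried a red fluorescent reporter tied to Foxp3, the WT controls included, and cells were sorted by its signal. Y3 and the ages of the mice are not described in the labels, and the series title names IL-2Rβ, a chain of the IL-2 receptor, beside CD103. No group lacked CD103 without Y3. The labels do not say whether arrays of a group came from separate animals or from pools, so the p-values reflect only how far these arrays spread, which may be technical.

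As background, TGF-β binds a type II receptor, which recruits and phosphorylates a type I receptor. The type I receptor phosphorylates SMAD2 and SMAD3, which enter the nucleus with SMAD4 and act on target genes together with other factors, RUNX proteins among them. SMAD7 blocks the receptor, while SKI and SKIL (also called SnoN) hold SMAD complexes in check on DNA. In T cells of the gut, TGF-β raises CD103, which pairs with the β7 chain encoded by Itgb7 and binds E-cadherin on epithelial cells. RUNX3 is a known factor at Itgae in CD8 T cells.

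Runx3 was the only member to pass the test described below, narrowly and in 0 of 9 fits that left out 1 array. Its promoters are therefore shown first. Every match to RUNX and SMAD motifs in the printed bases is in capitals. The RefSeq table of promoters (build GRCm38.p6) held windows of 250 bases before to 50 bases after a transcript start for 7 of the 10 members, in 10 windows. The table held no window for Itgae. Runx3 had 2 of the windows, for its upstream start and for a second start further inside the gene. The 250 bases before each start are printed 5′ to 3′ on the plus strand, at chr4:135120395-135120644 and chr4:135152295-135152544. The upstream stretch lies outside the gene, next to its first base, and the second lies within the span of the gene.
Runx3 upstream start: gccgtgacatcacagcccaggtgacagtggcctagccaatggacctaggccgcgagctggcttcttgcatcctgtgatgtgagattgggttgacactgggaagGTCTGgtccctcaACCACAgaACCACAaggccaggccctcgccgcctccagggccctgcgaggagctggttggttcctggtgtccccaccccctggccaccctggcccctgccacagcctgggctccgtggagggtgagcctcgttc
Runx3 second start: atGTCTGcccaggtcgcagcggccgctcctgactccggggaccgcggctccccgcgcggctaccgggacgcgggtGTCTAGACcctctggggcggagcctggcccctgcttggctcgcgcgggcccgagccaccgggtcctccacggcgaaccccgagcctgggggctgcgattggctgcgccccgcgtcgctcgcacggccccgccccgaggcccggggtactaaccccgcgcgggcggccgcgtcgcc
The motifs searched, on both strands, were TGTGGT and TGCGGT for RUNX factors and GTCTAGAC and CAGAC for SMADs. The upstream stretch held TGTGGT 2 times on the minus strand, read here as ACCACA, 134 and 126 bases before the start, and CAGAC, read as GTCTG, 147 bases before it. The stretch before the second start held GTCTAGAC 175 bases and GTCTG 248 bases before that start. The upstream window held a further GTCTG 26 bases after the start, outside the printed bases. Among all 32851 windows of the table, each of 300 bases, TGTGGT was in 16.8%, TGCGGT in 6.45%, GTCTAGAC in 0.213% and CAGAC in 49.6%.

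The pair of ACCACA with 2 bases between them was searched as a motif of its own (ACCACA, any 2 bases, ACCACA) on both strands, after it had been seen in the Runx3 sequence. It overlaps the TGTGGT motif by construction. It was in 7 of 32851 windows (0.0213%), and 3 of these 7 belonged to Runx1, Runx2 and Runx3, the 3 genes of the RUNX family in the mouse. The others belonged to Gm15462, Olfr24, Gm12236 and Gm16225, and the window of Gm16225, a neighbour of Runx3, overlaps that of Runx3. The 3 sites are shown because they share the pair and the bases inside it. They lie at chr16:92826025-92826054 on the minus strand for Runx1, at chr17:44814583-44814612 on the minus strand for Runx2 and at chr4:135120503-135120532 on the plus strand for Runx3, each printed on its gene's strand with the pair in capitals.
Runx1: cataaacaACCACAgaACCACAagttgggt
Runx2: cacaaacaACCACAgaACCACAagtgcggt
Runx3: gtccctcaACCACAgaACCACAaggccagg
The pair began 28 bases after the start of Runx1, 23 bases after that of Runx2 and 134 bases before that of Runx3. These matches describe letters in a window, and binding of a factor was not measured.

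The deposited values are log2 signals, so a difference of 1 is a change by a factor of 2, and values are compared between arrays for 1 gene at a time. Differences were fitted with limma over all 9 arrays, and a gene is said to have risen or fallen at a Benjamini-Hochberg adjusted p under 0.05. The targeted gene was read first. Itgae stood at 8.06, 7.87 and 7.85 on the WT arrays, at 9.35, 9.11 and 9.51 on the Y3 arrays and at 6.64, 6.05 and 6.86 on the Y3/CD103-/- arrays. The 3 groups did not overlap, and it was not established which part of Itgae the feature covers or which part was deleted. Itgae was 2.63-fold higher in Y3 than in WT (log2 difference 1.40 ± 0.21, SE, limma adjusted p = 0.0169) and, between the Y3 groups, 7.0-fold lower where CD103 was deleted (-2.81 ± 0.21, limma adjusted p = 0.000679). Leaving out arrays ended the rise in Y3 in 4 of 9 fits, with an adjusted p of 0.0571 without WT array 2, 0.0509 without WT array 3, 0.0948 without Y3 array 1 and 0.113 without Y3 array 3, and the fall against WT in Y3/CD103-/- (limma adjusted p = 0.0159) did not pass without WT array 1 (0.0538). The rise in Y3 also did not pass with the epithelial list's mean in the fit (1.44, limma adjusted p = 0.195) or with Y3 arrays 1 and 3 averaged (1.34, 0.106). The fall against WT did not pass with that mean (-1.38, 0.0883) or with only those 2 groups fitted (-1.41, 0.0773). That mean, given below, was higher on every WT array than on every Y3 array. In Y3 against WT its part therefore cannot be told apart from the group by this fit. Itgb7, which encodes the β7 partner chain, ranged from 6.87 to 7.34 in WT, from 7.26 to 7.31 in Y3 and from 6.98 to 7.28 in Y3/CD103-/-. The groups overlapped for Itgb7 in each comparison, with limma adjusted p from 0.585 to 0.999.

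As series-wide facts, Foxp3 averaged 9.38, 9.52 and 9.55 in WT, Y3 and Y3/CD103-/-, Cd4 8.11, 8.31 and 8.32, and Cd3e 10.5, 10.4 and 10.3, so these 3 markers of the labelled cells were bright on the arrays of each group. Il2ra, the α chain of the IL-2 receptor and another marker among the 8 tested, averaged 8.15, 7.50 and 7.28, which was -0.65 in Y3 against WT (limma adjusted p = 0.0790) and -0.86 in Y3/CD103-/- against WT (0.0258), where it fell. That fall passed in 1 of 9 fits that left out 1 array, the one without Y3 array 2, with adjusted p from 0.0463 to 0.0809. Array medians ran from 3.15 to 3.23. The spread of the values was widest on Y3 arrays 1 and 3 (SD 1.87 and 1.88, against 1.70 to 1.77 on the other 7 arrays). The list of intestinal epithelial markers, 17 of 18 tested, averaged 4.94 to 6.08 on the WT arrays with WT array 2 the highest, 3.93 to 4.43 on the Y3 arrays and 3.99 to 5.44 on the Y3/CD103-/- arrays. The median gene differed by 0.15 between Y3 and WT, by 0.04 between Y3/CD103-/- and WT and by -0.10 between Y3/CD103-/- and Y3, and the values of single genes below stand on that shift. The number of arrays limits the precision, and the 95% interval of the median gene reached 0.45 to either side of its difference.

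**Figure D1:**
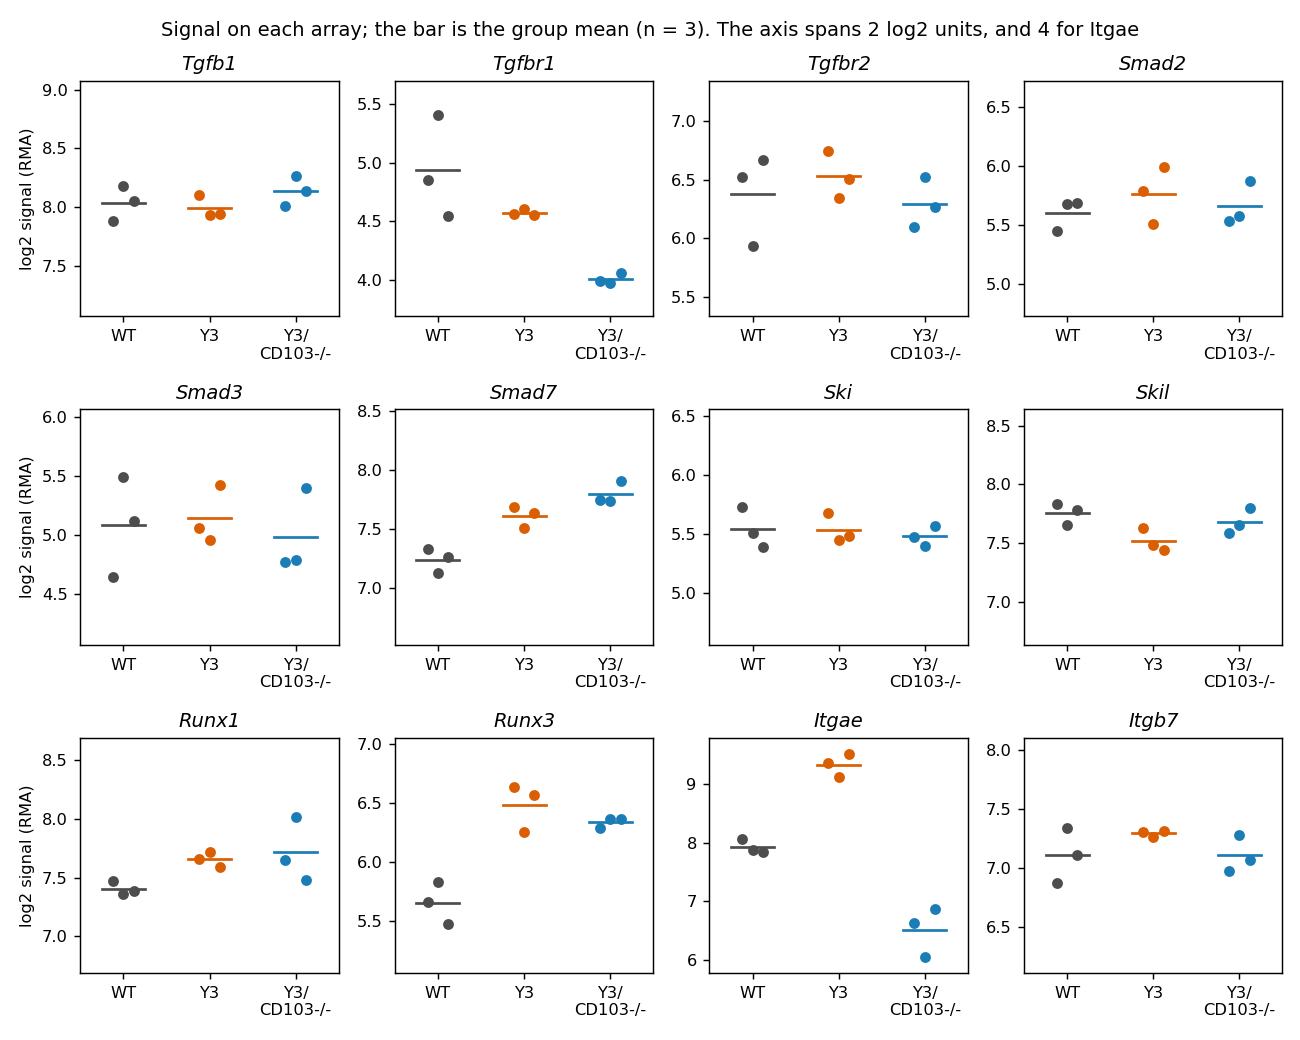
Log2 signal of the 10 members, Itgae and Itgb7 on each of the 9 arrays, a panel per gene, with the points of the WT, Y3 and Y3/CD103-/- groups and a bar at the mean of the 3 arrays. The y axis spans 2 log2 units, and 4 for Itgae. Runx3 lay between 5.47 and 5.83 on the WT arrays and between 6.26 and 6.64 on the arrays of the other 2 groups. Tgfbr1 lay between 3.98 and 4.06 on the Y3/CD103-/- arrays.

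Tgfb1 encodes the TGF-β1 ligand, which Tregs both make and respond to. Its signal was 7.88, 8.18 and 8.05 in WT, 8.10, 7.93 and 7.94 in Y3 and 8.01, 8.26 and 8.14 in Y3/CD103-/-. The 3 groups overlapped, and no array stood apart. The log2 difference was -0.04 in Y3 against WT (95% interval -0.38 to 0.29, limma adjusted p = 0.901), 0.10 in Y3/CD103-/- against WT (-0.23 to 0.44, 0.825) and 0.14 between the Y3 groups (-0.19 to 0.48, 0.775). The intervals leave room for changes of up to 0.48 on the log2 scale.

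Tgfbr1 encodes the type I receptor kinase, the receptor that acts on SMAD2 and SMAD3. Its signal was 4.85, 5.40 and 4.55 in WT, 4.56, 4.60 and 4.55 in Y3 and 3.995, 3.98 and 4.06 in Y3/CD103-/-. The 3 Y3/CD103-/- arrays were the 3 lowest, WT arrays ranged widely with WT array 2 the highest, and WT array 3 was level with the Y3 arrays. Against WT, the Y3/CD103-/- level differed by -0.92 ± 0.20 (SE, 95% interval -1.37 to -0.48, limma adjusted p = 0.0669), a 1.89-fold lower signal that did not pass the test. It passed when WT array 3 was left out (-1.12, limma adjusted p = 0.0457) and did not in the fits that left out another array, with adjusted p up to 0.164. Without WT array 2 the difference was -0.69 (0.121). WT array 2 also had the highest mean of the epithelial marker list, 6.08 against 4.94 and 5.09 on the other WT arrays, and the part of that list in the Tgfbr1 value was not tested beyond a fit with the list's mean as a covariate, in which the difference was -0.74 (limma adjusted p = 0.246). The Y3 and WT groups overlapped for Tgfbr1 (-0.36, limma adjusted p = 0.385), a value that moved to -0.13 with WT array 2 left out, to -0.56 with WT array 3 left out and to -0.11 in the fit with the epithelial covariate. The Y3/CD103-/- and Y3 groups did not, at -0.56 ± 0.20 (95% interval -1.01 to -0.11, limma adjusted p = 0.438).

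Tgfbr2 encodes the type II receptor, which binds the ligand first. Its signal was 6.52, 5.93 and 6.67 in WT, 6.74, 6.35 and 6.50 in Y3 and 6.10, 6.52 and 6.27 in Y3/CD103-/-. WT array 2 was the lowest of all 9 arrays, and the groups overlapped. The log2 differences were 0.16 in Y3 against WT, which took the other sign once the arrays were centred on their medians or quantile normalized, -0.08 in Y3/CD103-/- against WT and -0.23 between the Y3 groups, with limma adjusted p from 0.737 to 0.917. Within an array, Tgfbr1 minus Tgfbr2, set to a mean of 0 over WT, spread from -0.68 to 0.91 in WT, from -0.74 to -0.30 in Y3 and from -1.10 to -0.66 in Y3/CD103-/-. The groups overlapped for this receptor pair, since WT array 2 was highest and WT array 3 near the lowest Y3 value.

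Smad2 encodes a receptor-regulated SMAD that reaches DNA through its partners. Its signal was 5.45, 5.68 and 5.68 in WT, 5.78, 5.51 and 5.99 in Y3 and 5.53, 5.57 and 5.87 in Y3/CD103-/-. The groups overlapped, with differences of 0.16, 0.06 and -0.10 in the 3 comparisons and limma adjusted p from 0.666 to 0.928. The first and the last of these turned sign under median centring and quantile normalization.

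Smad3, the receptor-regulated SMAD that binds DNA itself, gave 4.64, 5.49 and 5.12 in WT, 5.06, 4.96 and 5.42 in Y3 and 4.77, 4.79 and 5.40 in Y3/CD103-/-. The arrays of each group spread widely, and the groups overlapped. The log2 difference was 0.07 in Y3 against WT (95% interval -0.49 to 0.62, limma adjusted p = 0.912, the other sign under both scalings), -0.10 in Y3/CD103-/- against WT and -0.16 between the Y3 groups. Among the 10 members, Smad3 had the widest interval, and in Y3 against WT it leaves room for a change of up to 0.62. Smad3 minus Smad2 within an array also overlapped between the groups, from -0.29 to 0.33 in WT, from -0.21 to -0.03 in Y3 and from -0.26 to 0.04 in Y3/CD103-/-.

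Smad7 encodes the inhibitory SMAD that TGF-β itself induces and that blocks the type I receptor. Its signal was 7.33, 7.12 and 7.26 in WT, 7.69, 7.51 and 7.64 in Y3 and 7.74, 7.74 and 7.91 in Y3/CD103-/-. The 3 groups did not overlap, with WT lowest and Y3/CD103-/- highest. The difference from WT was 0.37 ± 0.14 (SE, 95% interval 0.06 to 0.69, limma adjusted p = 0.231) in Y3 and 0.56 ± 0.14 (0.24 to 0.88, 0.111) in Y3/CD103-/-, which did not pass. Between the Y3 groups it was 0.18 (-0.13 to 0.50, 0.691). With arrays centred on their medians, the difference in Y3 was 0.21 and that in Y3/CD103-/- 0.54. The Smad7 difference in Y3/CD103-/- lay at the 95th percentile of all genes tested, and in Y3 at the 79.9th.

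Ski and Skil encode related corepressors of SMAD complexes. Ski gave 5.73, 5.51 and 5.39 in WT, 5.68, 5.45 and 5.48 in Y3 and 5.47, 5.40 and 5.57 in Y3/CD103-/-, and the groups overlapped throughout. Its differences were -0.00, -0.06 and -0.06 in the 3 comparisons, with 95% intervals inside -0.40 to 0.34 (limma adjusted p from 0.907 to 0.991), and the last took the other sign under both scalings. Skil gave 7.83, 7.66 and 7.79 in WT, 7.63, 7.48 and 7.44 in Y3 and 7.59, 7.66 and 7.80 in Y3/CD103-/-. The 3 Y3 arrays lay below the WT arrays, narrowly between Y3 array 1 and WT array 2, while the Y3/CD103-/- arrays overlapped both groups. The Skil difference was -0.24 ± 0.14 (SE, 95% interval -0.56 to 0.08, limma adjusted p = 0.412) in Y3 and -0.08 (0.865) in Y3/CD103-/- against WT. Skil minus Ski within an array, set to 0 over WT, ran from -0.27 to -0.19 in Y3, below the WT range of -0.11 to 0.18, and from -0.10 to 0.04 in Y3/CD103-/-, inside the WT range. The difference between the corepressors is given as a description, and no test of it was run.

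Runx1 encodes a factor with roles through T cell development, which also works with FOXP3 in Tregs. Its signal was 7.47, 7.36 and 7.39 in WT, 7.66, 7.72 and 7.59 in Y3 and 7.65, 8.01 and 7.48 in Y3/CD103-/-. The arrays of both other groups lay above the WT arrays, narrowly so for Y3/CD103-/- array 3, and Y3/CD103-/- array 2 stood highest. The difference from WT was 0.25 ± 0.16 (SE, 95% interval -0.11 to 0.61, limma adjusted p = 0.460) in Y3 and 0.31 ± 0.16 (-0.06 to 0.67, 0.458) in Y3/CD103-/-, and neither passed.

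Runx3 encodes the RUNX factor best known for the CD8 lineage and for cells that stay in tissues. Its signal was 5.66, 5.83 and 5.47 in WT, 6.64, 6.26 and 6.57 in Y3 and 6.29, 6.37 and 6.36 in Y3/CD103-/-. The WT arrays were the 3 lowest, and the other groups overlapped each other. Runx3 rose 1.78-fold in Y3 against WT (log2 difference 0.83 ± 0.16, SE, 95% interval 0.48 to 1.19, limma adjusted p = 0.0455), at the 98.4th percentile of the differences of all genes tested. It was the only member that passed in any of the 3 comparisons, and it passed narrowly. The difference was 0.67 (limma adjusted p = 0.0688) with arrays centred on their medians and 0.65 (0.0791) after quantile normalization. Runx3 passed in 0 of 9 fits that left out 1 array. The adjusted p was 0.0806, 0.0683 and 0.109 without WT arrays 1, 2 and 3, 0.216, 0.0602 and 0.221 without Y3 arrays 1, 2 and 3, and 0.0596, 0.0653 and 0.0680 without Y3/CD103-/- arrays 1, 2 and 3, with differences from 0.74 to 0.95. The Runx3 signal of Y3/CD103-/- was 1.61-fold higher than in WT (0.69 ± 0.16, 95% interval 0.33 to 1.04, limma adjusted p = 0.0872), which did not pass. Between the Y3 groups the difference was -0.15 (-0.51 to 0.21, 0.791), an interval that leaves room for a Runx3 level up to 0.51 lower or 0.21 higher without CD103.

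The mean of a list of CD8, γδ T and NK cell markers was, like Runx3, lowest on the WT arrays. Within WT and within Y3/CD103-/- the arrays did not keep the order of Runx3, and within Y3 they did. The mean of the 9 tested genes of that list of 11 was 5.55 to 5.79 on the WT arrays, 6.36 to 6.50 on the Y3 arrays and 6.06 to 6.48 on the Y3/CD103-/- arrays. In Y3, 4 of the 9 rose, which were the cytotoxic granule genes Gzma, Gzmb and Nkg7 and the chemokine Xcl1, beside 0.618% of all genes tested. The 4 are effector genes that cytotoxic and NK cells use. Nkg7 rose by 2.03 (limma adjusted p = 0.00121) and passed in 9 of 9 fits that left out 1 array. Gzma passed in 8 of these fits (not without Y3 array 1) and Xcl1 in 6 (not without Y3 arrays 1, 2 or 3). Gzmb passed in 5 (not without WT arrays 2 or 3 or Y3 arrays 1 or 3). Prf1, another effector gene of such cells on the list, differed by 0.81 (limma adjusted p = 0.214) and did not pass, and the groups overlapped. Of the genes that define such cells, Cd8b1 differed by -0.25 and Ncr1 by -0.19 between Y3 and WT. Cd8a differed by 0.13 and Eomes by 0.24, and limma adjusted p over these genes ran from 0.678 to 0.795. Cd8a lay above the median of its array on only 4 of 9 arrays and Eomes on 3. Their differences are therefore not read as a lack of change. Klrb1c and Klrd1 were too dim to test. When the epithelial mean entered the fit as a covariate, the Runx3 difference in Y3 was 0.97 (limma adjusted p = 0.219). The WT and Y3 arrays did not overlap in that mean, so its part cannot be told apart from the group. Whether cytotoxic cells have a part in the Runx3 value was not tested, and in bulk RNA fewer or more cells of a type and less or more RNA per cell cannot be told apart.

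**Figure D2:**
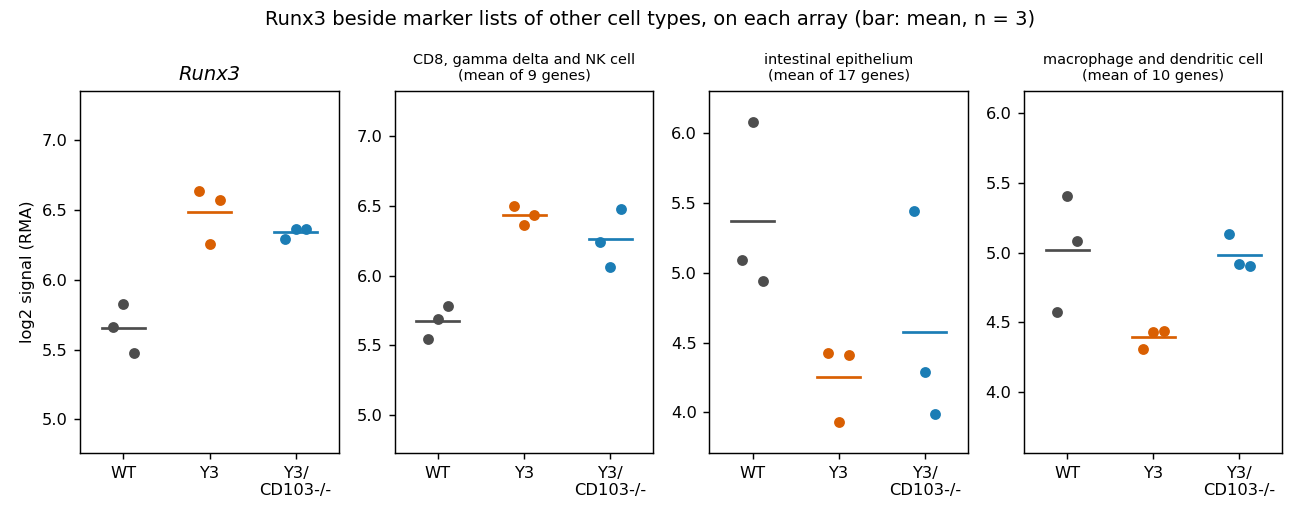
Log2 signal of Runx3 on each of the 9 arrays, and in 3 further panels the mean log2 signal of the CD8, γδ and NK list (9 genes), the epithelial list (17 genes) and the macrophage and dendritic cell list (10 genes), by group on the x axis, with a bar at the mean of 3 arrays. The WT arrays are the 3 lowest for Runx3 and for the cytotoxic list, and WT array 2 is highest for the epithelial list at 6.08.

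The RUNX pair was set side by side in the same way, also with no test. Runx3 minus Runx1 within an array, set to a mean of 0 over WT, was -0.06, 0.22 and -0.16 on the WT arrays, 0.73, 0.29 and 0.73 on the Y3 arrays and 0.39, 0.11 and 0.63 on the Y3/CD103-/- arrays. The Y3 arrays lay above WT, with Y3 array 2 closest, and the Y3/CD103-/- arrays overlapped WT through array 2. The other partners named were Cbfb, the shared subunit that RUNX factors need to bind DNA stably, and the corepressor Tle3. Cbfb gave 5.95, 5.82 and 5.86 in WT, 6.54, 6.27 and 6.51 in Y3 and 5.87, 6.14 and 5.98 in Y3/CD103-/-. The Y3 arrays lay above both other groups, at 0.57 ± 0.15 over WT (SE, limma adjusted p = 0.109) and with Y3/CD103-/- at -0.45 against Y3 (0.408), neither of which passed. Tle3 differed by 0.49 between Y3 and WT (limma adjusted p = 0.254), and the groups overlapped.

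**Figure D3:**
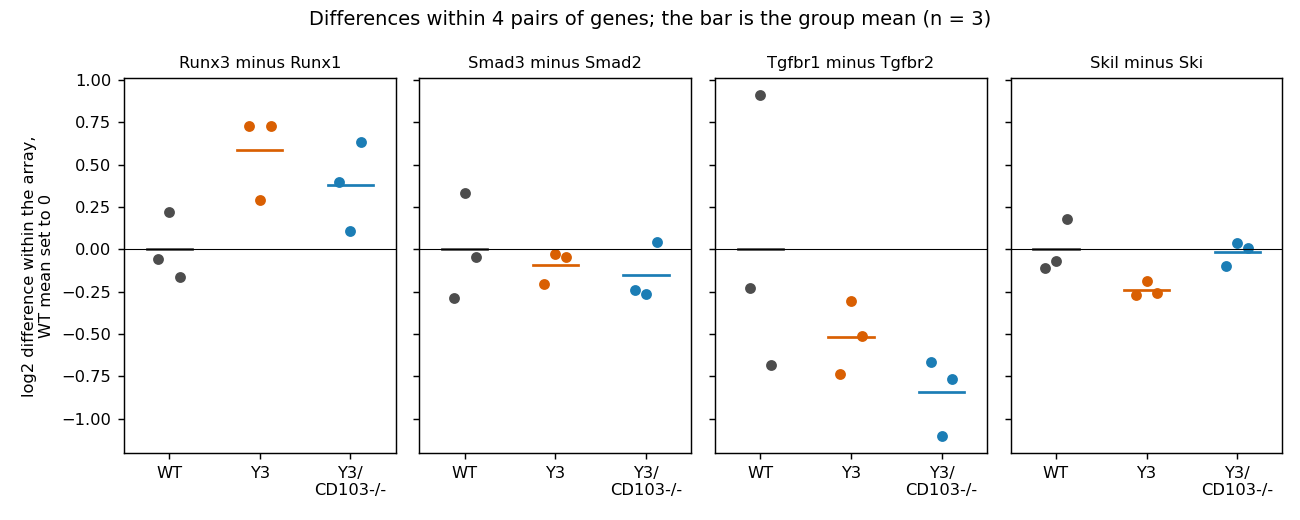
Difference of 2 members' log2 signals within each array, set to a mean of 0 over the WT arrays, for Runx3 minus Runx1, Smad3 minus Smad2, Tgfbr1 minus Tgfbr2 and Skil minus Ski, a point per array by group. Runx3 minus Runx1 lay between 0.29 and 0.73 in Y3 against -0.16 to 0.22 in WT, and Skil minus Ski between -0.27 and -0.19 in Y3 against -0.11 to 0.18 in WT.

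Counted over the members, 1 of 10 rose (Runx3) and 0 fell in Y3 against WT, beside 0.790% of all genes tested that changed, 0.618% upward and 0.172% downward. That background rests on 101 genes, a count that ran from 8 (without Y3 array 3) to 119 (without WT array 1) as arrays were left out. At an unadjusted p under 0.05, Smad7 and Runx3 were higher, 2 of 10 against 13.4% of all genes. The groups did not overlap for 3 members that were higher (Smad7, Runx1 and Runx3), beside 19.0% of all genes, and for 1 that was lower (Skil), beside 4.93%. The median difference of the members was 0.11, against 0.15 for all genes tested. No property of the list is read from these shares.

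In Y3/CD103-/- against WT, 0 of 10 members passed in limma, beside 0.836% of all genes. At an unadjusted p under 0.05, 2 members were higher (Smad7 and Runx3) and 1 lower (Tgfbr1), beside 7.90% and 5.35% of all genes. The fit with an intensity trend and robust estimation, the other variance model run, called these 3, among 309 of the 12792 genes tested. The groups did not overlap for Smad7, Runx1 and Runx3, which were higher, beside 10.7% of all genes, and for Tgfbr1, which was lower, beside 6.68%. The members' median was -0.00, against 0.04. In Y3/CD103-/- against Y3, 0 of 10 passed, beside 0.00782% of all genes, which is Itgae alone, and 1 member was under an unadjusted p of 0.05 (Tgfbr1, lower, beside 8.12%). Smad7 was higher without overlap, beside 4.11% of all genes, and Tgfbr1 lower, beside 14.4%. Both comparisons of the Y3 groups against WT share the WT arrays.

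**Figure D4:**
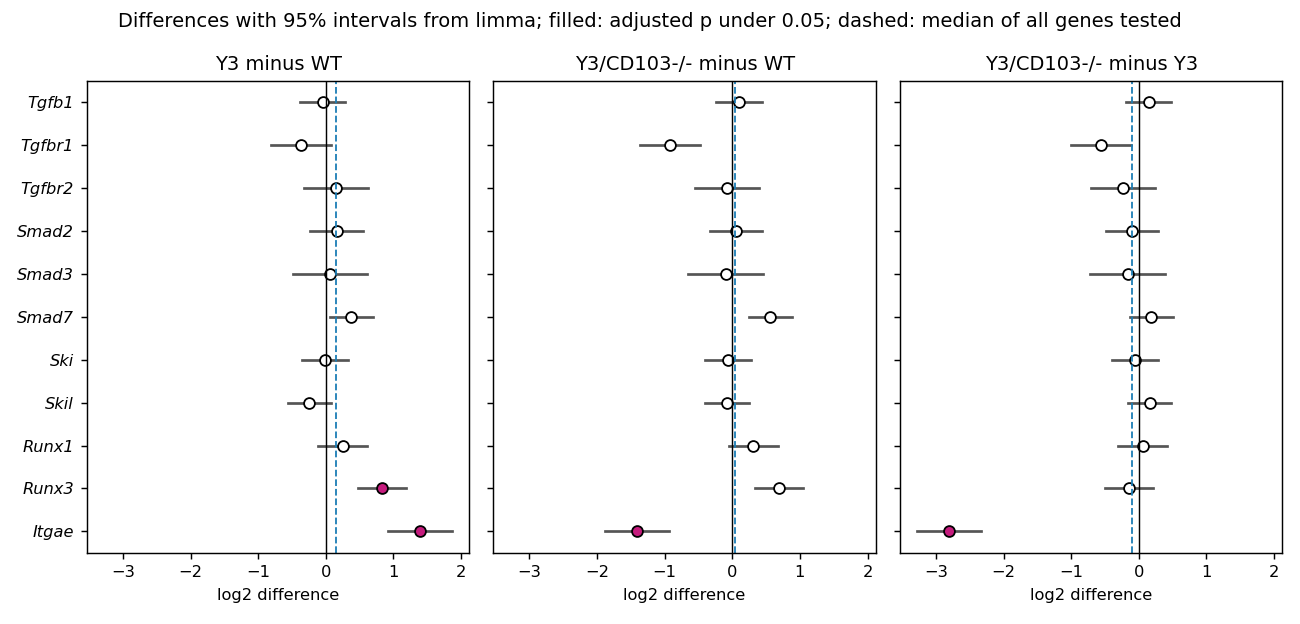
Log2 difference of each member and Itgae with its 95% interval from limma in the 3 comparisons, with a solid line at 0, a dashed line at the median of all genes tested and filled points for an adjusted p under 0.05. The interval of Runx3 lies above 0 in Y3 against WT (0.48 to 1.19) and that of Tgfbr1 below 0 in Y3/CD103-/- against WT (-1.37 to -0.48).

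Around the members, 84 other genes of the route were listed by role, and 62 of them were tested. In Y3 against WT, 0 of the 62 passed in limma, while 8 above and 5 below WT had an unadjusted p under 0.05, beside 13.4% and 3.60% of all genes. The share called among all genes was 0.790%. Against WT in Y3/CD103-/-, 2 rose (Furin and Zeb1) and 1 fell (Lrrc32), beside 0.555% and 0.281% of all genes. Between the Y3 groups, 0 passed in limma, and 2 above and 6 below Y3 had an unadjusted p under 0.05, beside 1.78% and 8.12% of all genes, of which 0.00782% were called. Itgb7 is among the 62, and Itgae is not.

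Of the genes that passed, Lrrc32 and Furin had been listed among ligands and activators, and Zeb1 among coactivators and partner factors. Lrrc32 encodes GARP, which holds latent TGF-β1 on the Treg surface. Its signal was 8.15, 8.13 and 7.84 in WT, 7.33, 7.25 and 6.87 in Y3 and 7.04, 7.29 and 6.56 in Y3/CD103-/-, so all 3 WT arrays lay above the other 6. Lrrc32 fell 2.11-fold in Y3/CD103-/- against WT (-1.07 ± 0.21, SE, limma adjusted p = 0.0498) but passed in 0 of 9 fits that left out 1 array: 0.109, 0.120 and 0.0762 without WT arrays 1, 2 and 3, 0.0863, 0.0813 and 0.0746 without Y3 arrays 1, 2 and 3, and 0.102, 0.0552 and 0.146 without Y3/CD103-/- arrays 1, 2 and 3. In Y3 it differed by -0.89 (0.0898).

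Furin encodes the convertase that cuts the TGF-β precursor. Its signal was 7.26, 7.52 and 6.92 in WT, 7.90, 7.66 and 7.71 in Y3 and 8.10, 8.47 and 8.20 in Y3/CD103-/-, and the 3 groups did not overlap. Furin rose 2.04-fold in Y3/CD103-/- against WT (1.03 ± 0.19, SE, limma adjusted p = 0.0337), which among the fits that left out 1 array passed only without WT array 2 (0.0417). It was 0.0777 and 0.0814 without WT arrays 1 and 3, 0.0625, 0.0586 and 0.0728 without Y3 arrays 1, 2 and 3, and 0.0636, 0.1004 and 0.101 without Y3/CD103-/- arrays 1, 2 and 3. In Y3 it differed by 0.53 (0.203). Itgb8, the chain of the integrin with which Tregs release active TGF-β, differed from WT by 0.74 (0.0891) in Y3 and by 0.75 (0.0888) in Y3/CD103-/-. Neither passed, although the 6 arrays of these groups, from 7.48 to 8.08, lay above WT, from 6.89 to 7.15. Thbs1 encodes thrombospondin 1, a secreted activator of latent TGF-β, and gave 4.38, 4.57 and 4.61 in WT, 3.21, 2.47 and 3.42 in Y3 and 4.53, 4.43 and 3.37 in Y3/CD103-/-. On Y3 arrays 1 and 3 these values were near the median of their array, and on Y3 array 2 below it (2.47 against 3.19). No difference is therefore given for them. Thbs1 did not pass the test in any comparison (limma adjusted p from 0.0609, in Y3 against WT, to 0.629). The macrophage and dendritic cell list, 10 of 15 genes tested, had array means of 4.57 to 5.41 in WT, 4.31 to 4.44 in Y3 and 4.90 to 5.14 in Y3/CD103-/-, and its part in the Thbs1 value was not tested.

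Zeb1 encodes a zinc finger factor that binds SMADs. Its signal was 7.48, 7.32 and 7.34 in WT, 8.09, 7.88 and 8.13 in Y3 and 8.57, 8.23 and 8.28 in Y3/CD103-/-, in 3 groups that did not overlap. Zeb1 rose 1.97-fold in Y3/CD103-/- against WT (0.98 ± 0.16, SE, limma adjusted p = 0.0219). It passed in 5 of 9 fits that left out 1 array and did not without WT array 2 (0.0680), WT array 3 (0.0586), Y3/CD103-/- array 1 (0.0636) or Y3/CD103-/- array 3 (0.0746). In Y3 it differed by 0.65 (0.0891).

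In the other lists, members included, 0 genes but Runx3 and Itgae passed. Of 6 SMAD proteins tested, Smad5, a BMP-route SMAD, differed by 0.57 in Y3 against WT (limma adjusted p = 0.166), and the list's median was 0.24, against 0.15 for all genes. Of 18 inhibitors and turnover factors, 14 were above and 4 below WT in Y3, with a median of 0.21, where 70.5% of all genes were above. With arrays centred on their medians, 10 were above and 8 below, with a median of 0.042. Of this list, Usp15, which removes ubiquitin from the receptor complex, differed by 0.53 (0.128). Of 7 receptors tested, 5 were above and 2 below WT in Y3 (4 and 3 with centring), with a median of 0.18, and Bmpr2, a type II receptor for BMPs, differed by -0.35 (0.412). Of 10 kinases that act beside SMADs, 7 were above and 3 below (6 and 4 with centring), with a median of 0.21, and Tab1 differed by -0.36 (0.330).

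Of 14 tested genes that TGF-β induces in T cells by textbook knowledge, 6 were above and 8 below WT in Y3 (3 and 11 with centring), with a median of -0.04 against 0.15 for all genes, and 1 passed there, Itgae itself. Gpr15, a homing receptor of the large intestine, gave 5.72, 5.71 and 5.71 in WT, 4.68, 4.14 and 4.93 in Y3 and 4.74, 4.39 and 5.66 in Y3/CD103-/-. The WT arrays lay above the others, with a difference of -1.13 in Y3 (limma adjusted p = 0.111) that did not pass. So Itgae and Gpr15, both on the list, differed from WT in opposite directions in Y3.

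**Figure D5:**
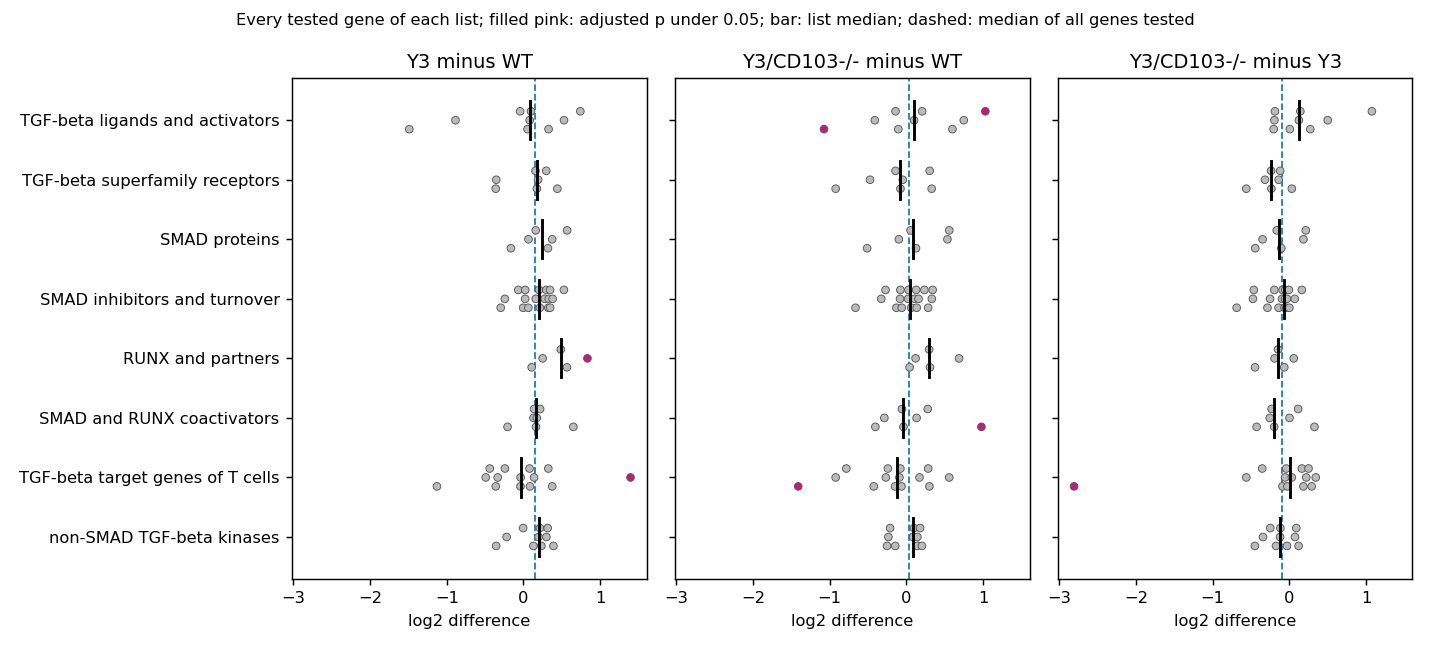
Log2 difference of each tested gene of the TGF-β, SMAD and RUNX lists in the 3 comparisons, a row per list, with pink points for genes past the test, a bar at the list's median and a dashed line at the median of all genes tested. In Y3 against WT, Runx3 and Itgae are the genes past the test, and in Y3/CD103-/- against WT they are Furin, Zeb1, Lrrc32 and Itgae.

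The profile of each member over the 9 arrays was set beside that of Itgae by the root mean square of the differences between their values, each gene minus its own mean. A flat gene would lie 1.17 from Itgae. The nearest member was Tgfbr1 (1.01, rank 1050 of 12791 genes), and Runx3 lay at 1.17 (rank 7105), as far as a flat gene. The Itgae profile over the 9 arrays includes the group in which CD103 was deleted. A low value in that group therefore brings a gene nearer to Itgae. Over the 6 WT and Y3 arrays alone, a choice made after seeing the data, Runx3 was the nearest member (0.311, rank 80 of 12791, flat gene 0.711), followed by Smad7 (0.519, rank 1625). Tgfbr1 was the farthest member there (0.927, rank 11918), farther than a flat gene. The values say no more than that Runx3 and Itgae were both higher in Y3 than in WT, while in Y3/CD103-/- the Itgae signal was lowest and the Runx3 signal stayed above WT. The genes nearest to Itgae over all arrays were 6330403K07Rik (0.623), Tagap1 (0.628), Haspin (0.667), 9930111J21Rik2 (0.684) and Platr27 (0.688), of which Haspin lies within the span of Itgae. Platr27 exceeded its array's median only on the 3 Y3 arrays and passed the filter on dim genes through them alone. Those nearest to Runx3 were Cd68 (0.0750), Ehd1 (0.101) and Sirt2 (0.102). Cd68 is on the macrophage and dendritic cell list, where it was the 1 tested gene above WT in Y3, with 9 below.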

How the data were processed

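The deposited values are log2 signals of Affymetrix mouse Gene ST2.0 arrays, which the authors made with RMA, per the submitters' processing notes. RMA's version, its settings and the genome build: not given in the sources used here. RNA was amplified before labelling, per the labels' protocols. Of 39137 features, 23521 were paired with 1 gene, 1814 with several and 13802 with none. The brightest feature of a gene was kept, and a gene was tested if it exceeded its array's median on at least 3 of 9 arrays. Group means were fitted in 1 model with limma 3.58.1 in R 4.3.3 (lmFit, eBayes), 2-sided, with Benjamini-Hochberg adjustment over 12792 genes within each comparison. The fit was tested on simulated data of independent normal values. These held no shift of the median gene between groups, so the test does not cover such a shift. Members and lists were chosen with earlier results of these data known. Named were the members, Itgae, Itgb7, in each list up to 3 genes other than members that passed or else the one of smallest p in Y3 versus WT, the nearest profiles and marker genes. Itgb8, Thbs1, Tle3 and Haspin's position were added after their values were seen. Alternatives changed the filter, features, scaling, variance model, array weights, arrays fitted, block and threshold, and added an epithelial covariate. Sequences are RefSeq's.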

Additional observations from a re-analysis of the deposited data

How the results depend on the processing

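The count of members called in Y3 against WT fell from 1 to 0 with no filter on dim genes, quantile normalization, median centring, the replicate block, the epithelial covariate, Y3 arrays 1 and 3 averaged, only the 2 groups fitted, an adjusted p under 0.01, and each array left out (0 to 0). The count in Y3/CD103-/- against WT was 3 with an intensity trend and robust estimation, 2 at an adjusted p under 0.10 and 0 to 1 as arrays were left out. The cause was not tested.

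The counts of all genes called, 101, 107 and 1 in the order of Y3 against WT, Y3/CD103-/- against WT and Y3/CD103-/- against Y3, ran from 8 to 119, 28 to 70 and 1 to 2 as arrays were left out. The first 2 counts were 52 and 54 with no filter, 346 and 309 with trend and robust estimation, 346 and 60 with array weights, 3 and 15 with the epithelial covariate, 12 and 62 with Y3 arrays averaged, 63 and 17 with only 2 groups fitted, 10 and 19 at an adjusted p under 0.01 and 299 and 280 at 0.10. The third was 3 with the mean of features, 10 with trend and robust estimation, 9 with array weights and 2 at an adjusted p under 0.10. Of the genes called in Y3 against WT, 79 were higher and 22 lower as deposited, 46 and 54 with centring, and 46 and 34 with quantile normalization.

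With the replicate number as a block the counts were 54 and 55, and Runx3 in Y3 reached an adjusted p of 0.0992 and Furin in Y3/CD103-/- 0.0585. It was not established whether the numbers pair the arrays: of 9 pairs with the same number, 1 had a correlation of deviations over 0.1 (-0.044 to 0.107).

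Signs of differences that did not pass turned as follows. In Y3 against WT, Tgfbr2, Smad2 and Smad3 were -0.029, -0.047 and -0.12 with quantile normalization and -0.0097, -0.0069 and -0.10 with centring. Tgfb1 was 0.00065 and Ski 0.045 with array weights, and Tgfbr2 -0.17 with the epithelial covariate. As arrays were left out, Tgfb1 ran from -0.12 to 0.027, Tgfbr2 from -0.063 to 0.30, Smad3 from -0.15 to 0.27 and Ski from -0.082 to 0.089. In Y3/CD103-/- against WT, as arrays were left out, Smad2 ran from -0.053 to 0.12, Ski from -0.14 to 0.033, Smad3 from -0.32 to 0.10 and Tgfbr2 from -0.30 to 0.069. In Y3/CD103-/- against Y3, Smad2 and Ski were 0.053 and 0.11 with quantile normalization and 0.045 and 0.093 with centring, where Runx3 was 0.0019. As arrays were left out, Smad2 ran from -0.23 to 0.011, Ski from -0.10 to 0.015, Runx1 from -0.090 to 0.17 and Lrrc32 from -0.35 to 0.017.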
